A study of Homo sapiens with 4 samples.

Results

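The miR-193 and miR-365 miRNAs come from 2 small gene clusters, each holding 1 miR-193 hairpin and 1 miR-365 hairpin. They were followed in the human cell line HCT116, from a colorectal carcinoma, with and without induction of a short hairpin RNA (shRNA) against SAE2. Rows of the deposited table named miR-193a, miR-193b, miR-365, miR-365a or miR-365b, on either arm, gave 8 of its 1345 rows. miR-365a-3p and miR-365b-3p had equal values in all 4 libraries and were counted as 1 signal, miR-365-3p, which left 7 signals of 1105 distinct ones in the table. The rows were chosen by name. Only the merging of equal rows selected on measured values, those of the 4 libraries, so that this coincidence is no result. The naming rule uses no difference between conditions, but the group was chosen with earlier results of these data known. Its count of calls beside the share over the table is therefore descriptive only.

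SAE2 is the catalytic subunit of the enzyme that activates SUMO for attachment to proteins. All cells were HCT116 carrying a doxycycline-inducible shRNA against it, in 2 lines with independent shRNAs, sh1 and sh2. The minus group had 1 library of each line, and the plus group had 1 library labelled sh2 (plus replicate 2) and 1 whose label gives no shRNA number (plus replicate 1), read as sh1 by elimination. Minus and plus are read here as without and with doxycycline, which the protocol gives for 3 days in the same words for every library. Neither doxycycline-treated cells without an SAE2 shRNA nor the level of SAE2 itself was analysed here, so that an effect of doxycycline and one of the knockdown cannot be told apart. With a pair of libraries per group, a row's own spread gave only 2 degrees of freedom in the limma test. A further 43.0 were borrowed from the trend of variance on level over all tested rows. The limma p-values and intervals therefore rest mainly on how the tested miRNAs as a set varied in these 2 lines.

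A miRNA hairpin is cut into a 5p and a 3p strand, and usually 1 of them is kept and guides silencing of mRNAs that pair with its seed, bases 2 to 8. Strands of miR-193 and miR-365 have been reported to repress the anti-apoptotic gene MCL1 and the cell cycle gene cyclin D1, and the miR-193b cluster is known from brown fat cell development.

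The 8 mature strands are shown first, because strands that share a seed can share targets and strands of equal sequence cannot be told apart by sequencing. Sequences are from RefSeq (GRCh38.p14), where all 8 rows matched by name, and capitals mark the seed.
miR-193a-3p: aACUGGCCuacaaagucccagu
miR-193b-3p: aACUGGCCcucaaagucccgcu
miR-365a-3p: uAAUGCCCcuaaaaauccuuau
miR-365b-3p: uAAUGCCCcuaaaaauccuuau
miR-193a-5p: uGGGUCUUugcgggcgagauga
miR-193b-5p: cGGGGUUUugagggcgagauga
miR-365a-5p: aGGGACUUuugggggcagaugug
miR-365b-5p: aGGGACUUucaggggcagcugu

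Counted from the 5′ end, miR-193a-3p and miR-193b-3p share the seed and differ at 4 of 22 positions, U9C, A10U, A20G and G21C. The 3p strands of miR-365a and miR-365b have the same 22 bases. On the 5p arm miR-193a and miR-193b differ at U1C, U5G, C6U and C11A, of which 2 lie in the seed, so that these strands have different seeds. miR-365a-5p and miR-365b-5p share the seed and differ at U10C, G11A and A19C over the 22 positions compared, and miR-365a-5p is 23 bases long. No mature miRNA of the RefSeq table outside these 8 names has any of these seeds.

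The hairpins show which strand comes from which locus, with the mature strands in capitals. The deposited table holds no coordinates, and the positions are those of GRCh38.p14, all on the + strand.
MIR193B, chr16:14303967-14304049: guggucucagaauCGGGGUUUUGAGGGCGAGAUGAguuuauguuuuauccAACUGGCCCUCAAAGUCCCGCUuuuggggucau
MIR365A, chr16:14309285-14309371: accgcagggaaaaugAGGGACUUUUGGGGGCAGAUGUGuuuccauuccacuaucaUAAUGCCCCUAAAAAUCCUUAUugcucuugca
MIR193A, chr17:31559996-31560083: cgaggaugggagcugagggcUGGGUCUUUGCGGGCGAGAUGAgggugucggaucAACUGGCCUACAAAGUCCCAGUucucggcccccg
MIR365B, chr17:31575411-31575521: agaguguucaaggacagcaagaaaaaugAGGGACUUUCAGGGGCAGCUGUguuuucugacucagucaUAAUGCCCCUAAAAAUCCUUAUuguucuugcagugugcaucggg

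On chromosome 16, MIR193B and MIR365A lie 5235 bases apart inside the long non-coding host gene MIR193BHG, in introns of all 4 host transcripts that span them in GENCODE. On chromosome 17, MIR193A and MIR365B lie 15327 bases apart. MIR365B lies in the non-coding gene MIR365BHG of RefSeq, and in GENCODE it overlaps an exon of the non-coding gene AC003101.1 by 11 bases, and MIR193A lies in no host gene on its strand in GENCODE or RefSeq. Of the 7 signals, miR-193b-3p, miR-193b-5p and miR-365a-5p therefore report on chromosome 16, miR-193a-3p, miR-193a-5p and miR-365b-5p on chromosome 17, and miR-365-3p on both.

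The deposited values appear to be read counts adjusted to a common library size and are called normalized read counts here. Estimated reads and counting intervals rest on this reading, and in minus replicate 2 only 86.9% of the values under 60 lay near whole reads. The normalized counts summed to between 9700472 and 10519207 per library, or an estimated 9566036 to 10302847 reads, and 3 reads corresponded to between 2.83 and 3.08 normalized counts. These totals run over all 1345 rows, so that values of equal rows, such as those of miR-365-3p, enter more than once. Colon epithelial markers (miR-192-5p, miR-194-5p, miR-200c-3p and miR-141-3p), the check of the cell type, summed to between 139095 and 140563 in the minus and between 153600 and 160088 in the plus libraries, most of it miR-200c-3p. In single libraries miR-200c-3p was at 119446 to 135723, miR-141-3p at 11979 to 14236, miR-194-5p at 3201 to 5730 and miR-192-5p at 2736 to 4942. Of these 4 markers miR-192-5p (log2 difference 0.78, limma adjusted p = 9.78e-09) and miR-194-5p (0.72, adjusted p = 4.74e-08) rose, and the median over the list was 0.45. Sums of the 5 blood markers lay between 962 and 1177 in the minus and between 999 and 1170 in the plus libraries, most of it miR-486-5p, at 789 to 1014 in single libraries. Of the other blood markers miR-451a was at 103 to 115, miR-142-3p at 30.9 to 60.45, miR-150-5p at 4.04 to 14.2 and miR-223-3p at 2.08 to 5.10, and 0 of the 3 tested passed. The 5 stroma and endothelium markers summed to between 15960 and 16012 in the minus and between 13455 and 16189 in the plus libraries. Among these miR-145-5p fell (log2 difference −0.29, limma adjusted p = 0.0125) and miR-143-3p rose (0.29, adjusted p = 0.0414). miR-126-3p stood at 4728 to 5490, miR-199a-5p at 22.7 to 41.3 and miR-214-3p at 1.03 to 4.09. Of the muscle, liver and neuron markers 5 of 6 names were found, with sums from 13919 to 14695 in the minus and from 18663 to 20238 in the plus libraries, nearly all of it miR-9-5p, which rose (log2 difference 0.44, limma adjusted p = 5.65e-05), and miR-133a was at 2.03 or less. Both miR-9-5p (13849 to 20142) and miR-145-5p (5843 to 7944) stood above the colon markers miR-192-5p and miR-194-5p in every library. All libraries were from the 1 line HCT116, and the origin of the reads of these other markers was not tested.

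In these cells the 3p strands of miR-365 and miR-193b were by far the most abundant of the group. miR-365-3p had 1352 (replicate 1) and 1404 (replicate 2) normalized counts without induction and 1909 and 1829 with it. miR-193b-3p had 875 in each minus library and 1363 and 1282 in the plus libraries. For each of these strands both plus libraries lay above both minus libraries, by far more than libraries of a group differed from each other. Among all rows of the table, miR-365-3p ranked between 158 and 163 and miR-193b-3p between 202 and 204 by level in the minus libraries.

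The 5p strand of miR-193b stood at 78.6 and 103 in the minus libraries, against 111 and 156 in the plus libraries. Its groups did not overlap, yet the libraries of replicate 2 were the higher ones in each group. miR-193a-5p, from chromosome 17, was at 92.7 and 85.0 in the minus libraries and at 85.35 and 108 in the plus libraries. Its groups overlapped, with plus replicate 1 next to minus replicate 2. The minor strand miR-365a-5p was at 37.3 and 28.25 in the minus and at 39.05 and 39.8 in the plus libraries, so that its groups did not overlap but minus replicate 1 lay close to the plus libraries.

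The lowest signals were both from chromosome 17. miR-193a-3p, which carries the seed of miR-193b-3p, was at 6.06 and 13.3 in the minus and at 9.25 and 8.18 in the plus libraries. miR-365b-5p was at 2.02 and 7.63 in the minus and at 4.12 and 4.09 in the plus libraries, and the lowest of these lies under the floor of 3 reads. In both signals the plus libraries lay between the minus libraries. In the order of levels, the ranges over the 4 libraries of miR-365-3p and miR-193b-3p overlapped, as did those of miR-193b-5p and miR-193a-5p and those of miR-193a-3p and miR-365b-5p, while all other neighbours in the order were separate. Strands of different sequence can be ligated and read with different efficiency, and its part in these levels was not tested.

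**Figure D1:**
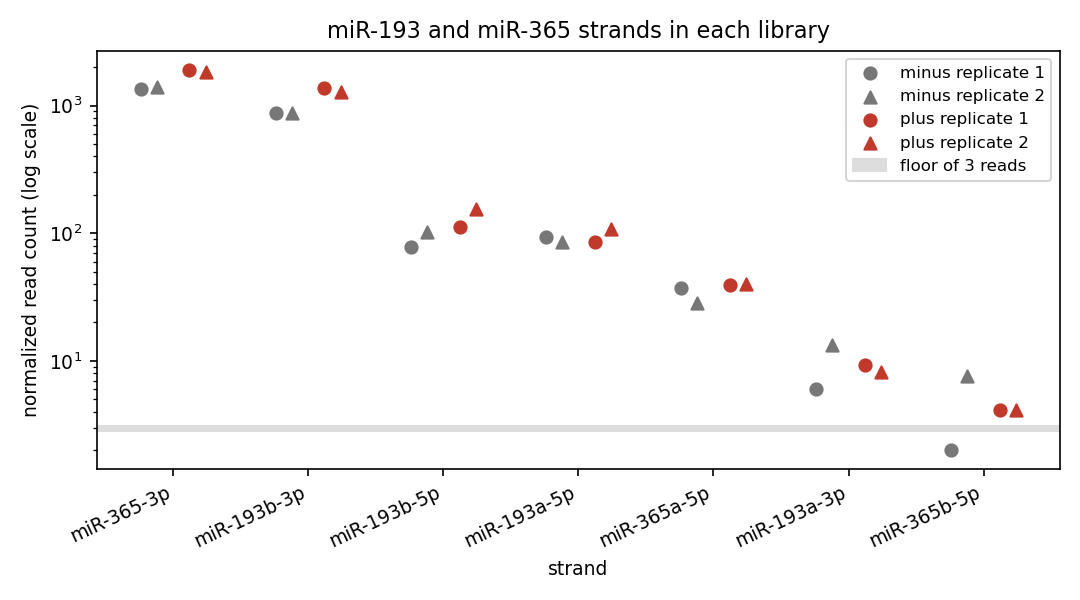
Normalized read count on a log axis of the 7 signals, ordered by mean level, in the 2 minus (grey) and 2 plus (red) libraries, with circles for replicate 1, triangles for replicate 2 and a grey band at 3 reads. The plus libraries lie above the minus libraries for miR-365-3p, miR-193b-3p, miR-193b-5p and miR-365a-5p, and miR-193a-3p and miR-365b-5p lie near the floor.

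With induction, the 2 abundant 3p strands and miR-193b-5p rose between 1.36- and 1.51-fold, and none of the 5 signals that could be tested had a negative difference. miR-193b-3p rose 1.51-fold, from 875 ± 0.148 to 1323 ± 57.4 normalized counts (SD, n = 2 each), with a log2 difference of 0.60, a standard error of 0.11 and a 95% interval of 0.37 to 0.82 (limma adjusted p = 4.63e-05). Its minus values came from 868 and 926 estimated reads, so that their SD of 0.148 is below counting error and no measure of reproducibility. miR-365-3p rose 1.36-fold, from 1378 ± 36.9 to 1869 ± 57.0 (SD, n = 2 each), with a log2 difference of 0.44, a standard error of 0.10 and an interval of 0.23 to 0.65 (limma adjusted p = 0.00100). miR-193b-5p rose 1.47-fold on the ratio of means, from 90.8 ± 17.2 to 134 ± 31.9 (SD, n = 2 each), with a log2 difference of 0.54, a standard error of 0.21 and an interval of 0.13 to 0.96 (limma adjusted p = 0.0438). These 3 were the signals past the threshold of 0.05, of 5 with the mean of at least 10 needed for the test and of 7 in all. The miR-193b strands come from 1 hairpin, and MIR365A lies in the same host gene. The 3 calls can therefore not be taken as independent. Over the whole table, 202 of 709 tested rows passed in either direction, 28.5%, and 95 rose, 13.4%. The median log2 difference was 0.44 over the 5 tested signals and −0.03 over the tested rows of the table. Over all 7 signals, with the 2 too low for the test, it was 0.27.

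Neither of the other tested signals passed. miR-193a-5p went from 88.9 ± 5.49 to 96.8 ± 16.2 (SD, n = 2 each), with a log2 difference of 0.11 and a 95% interval of −0.31 to 0.54 (limma adjusted p = 0.722). For miR-365a-5p, at 32.8 ± 6.39 and 39.4 ± 0.544 (SD, n = 2 each), the log2 difference was 0.27 with an interval of −0.32 to 0.87 (limma adjusted p = 0.520). The interval of miR-365a-5p includes the 0.60 of miR-193b-3p, and both intervals include the 0.44 of miR-365-3p.

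The 2 signals below the level needed for the test gave 20 and 17 estimated reads in the minus and plus libraries for miR-193a-3p, which is 0.90 times as many after scaling, with 0.443 to 1.81 as the 95% counting interval, and 10 and 8 reads for miR-365b-5p, 0.851 times as many (0.292 to 2.39). A change of the size seen in miR-193b-3p was not detectable at this depth for either. Counting intervals are exact binomial (Clopper-Pearson) on estimated reads, and since reads are not independent molecules they cover counting error only.

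Both plus libraries lay above both minus libraries for 4 of the 7 signals, all 4 among the 5 tested, and for 206 of the 709 tested rows, 29.1%. They lay below them for none of the 7, and for 240 tested rows, 33.9%. These 4 are the signals from chromosome 16 and the shared miR-365-3p, which can likewise not be taken as independent. For the 3 strands from chromosome 17 the groups overlapped. By the size of the log2 difference, miR-193b-3p ranked 67, miR-193b-5p 74, miR-365-3p 103, miR-365a-5p 172 and miR-193a-5p 265 from the top of the 709 tested rows.

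The calls of miR-193b-3p and miR-365-3p were lost without plus replicate 1 (limma adjusted p = 0.0746 and 0.0891), without plus replicate 2 (0.0518 and 0.0564), with no filter on low values (0.0706 and 0.0799) and with no mean-variance trend (0.0702 and 0.0949), and held in the other 11 of 15 alternatives, with positive differences in all 15. miR-193b-5p passed in 6 of 15, with adjusted p from 0.0201 to 0.424, and its log2 difference moved to 0.30 (plus replicate 2 left out), 0.35 (minus replicate 1) and 0.79 (plus replicate 1), none of which passed, and to 0.74 (minus replicate 2), which did (adjusted p = 0.0427).

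**Figure D2:**
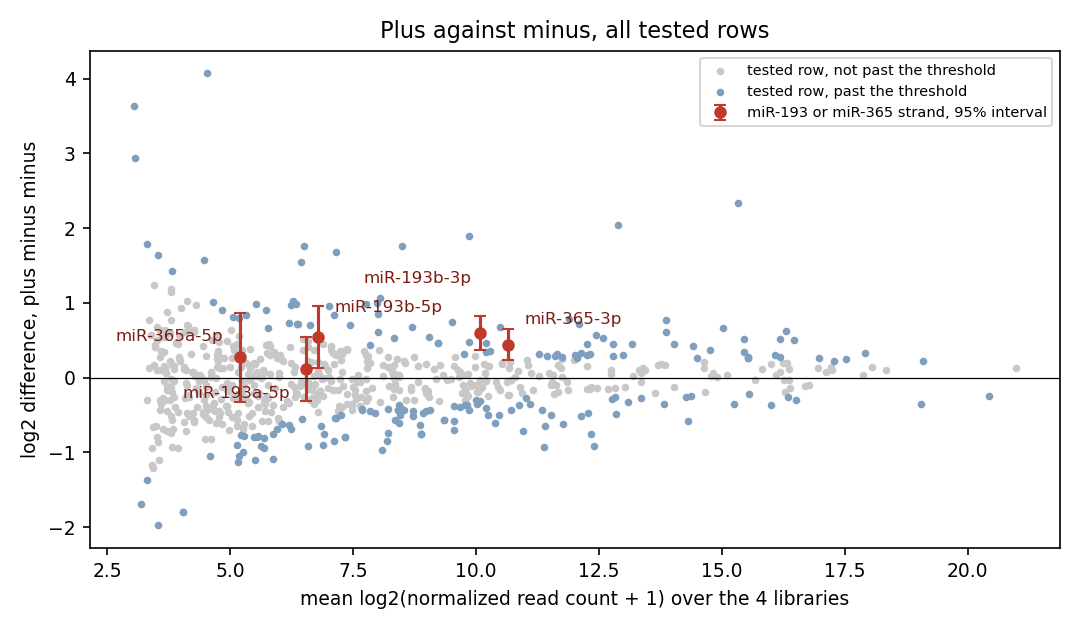
Log2 difference, plus minus minus, against mean log2(normalized read count + 1) for the 709 tested rows, with rows past the threshold in blue and others in grey, and the 5 tested miR-193 and miR-365 signals in red with their 95% intervals. miR-193b-3p at 0.60, miR-193b-5p at 0.54 and miR-365-3p at 0.44 have intervals above 0, and those of miR-365a-5p and miR-193a-5p include 0.

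The 2 shRNA lines were also taken apart, each with 1 library per condition and hence no test. miR-193b-3p was 1.56 times as high in plus as in minus in the sh1 line (95% counting interval 1.43 to 1.70) and 1.47 times in the sh2 line (1.35 to 1.60). miR-365-3p had ratios of 1.41 (1.32 to 1.52) and 1.30 (1.22 to 1.40). miR-193b-5p had ratios of 1.41 (1.05 to 1.91) and 1.52 (1.18 to 1.96). For these 3 signals both lines were above 1, beyond counting error in each. Counting error leaves out variation between libraries, and the share of all tested rows beyond it was not determined. The intervals of the lines overlapped for every one of the 7 signals.

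miR-365a-5p had a ratio of 1.05 in sh1 (0.648 to 1.69) and 1.41 in sh2 (0.853 to 2.35), and both intervals include 1. miR-193a-5p was at 0.920 in sh1 (0.676 to 1.25) and 1.27 in sh2 (0.953 to 1.71). miR-193a-3p was at 1.53 (0.485 to 5.21) and 0.615 (0.223 to 1.57), and miR-365b-5p, with 2 against 4 and 8 against 4 estimated reads, at 2.04 (0.292 to 22.5) and 0.536 (0.118 to 2.00). The ratios of the 3 chromosome 17 strands thus lay on opposite sides of 1 in the lines, each with intervals that include 1. Among signals that reached the level for the test this was so for 1 of 5, miR-193a-5p, and among all tested rows for 190 of 709, 26.8%.

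**Figure D3:**
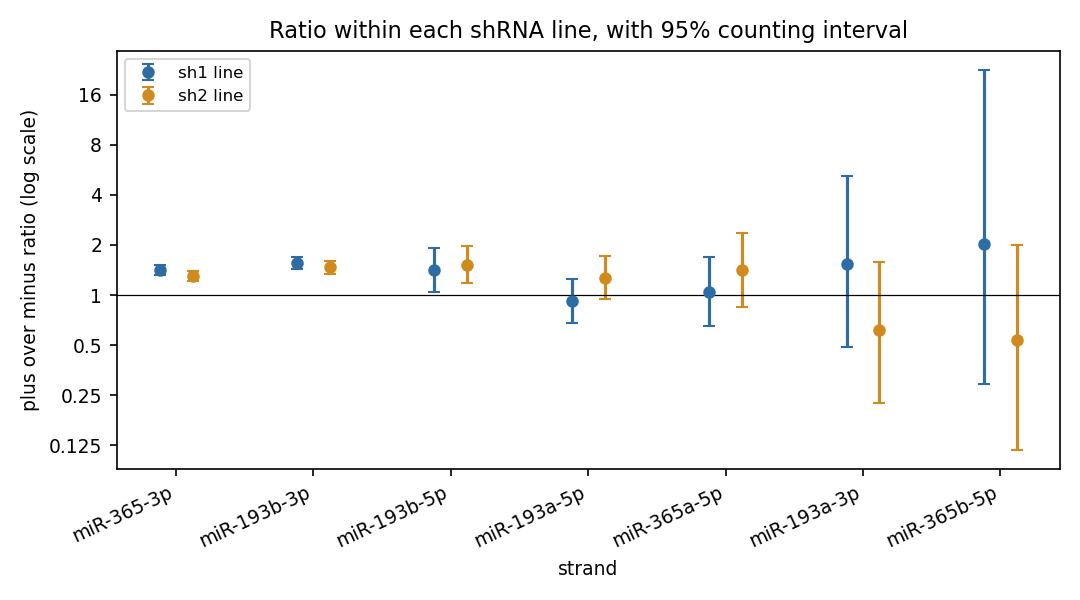
Ratio of plus to minus, on a log axis, within the sh1 line (blue) and the sh2 line (orange) for the 7 signals ordered by level, with 95% counting intervals and a line at 1. Both lines lie above 1 for miR-365-3p, miR-193b-3p and miR-193b-5p, and the lines straddle 1 for miR-193a-5p, miR-193a-3p and miR-365b-5p.

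The arm with more reads differed between the miR-193 paralogs. Of the miR-193b reads, the 3p strand made up 91.8% in minus replicate 1 (95% exact interval 89.8% to 93.4%), 89.5% in minus replicate 2 (87.4% to 91.3%), 92.5% in plus replicate 1 (91.0% to 93.8%) and 89.1% in plus replicate 2 (87.4% to 90.7%). Of the miR-193a reads the 3p strand made up 6.12% (2.28% to 12.9%), 13.5% (7.56% to 21.6%), 9.78% (4.57% to 17.8%) and 7.02% (3.08% to 13.4%) in the same order. The 5p arm therefore had more reads in miR-193a and the 3p arm in miR-193b in all 4 libraries, and the part of unequal ligation in this was not tested. Between conditions the 3p to 5p ratio of miR-193b did not separate, at 11.1 and 8.50 in the minus and 12.3 and 8.21 in the plus libraries. Nor did that of miR-193a, or that of miR-365-3p to miR-365a-5p, at 36.2 and 49.7 in the minus and 48.9 and 45.9 in the plus libraries.

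Since the paralogs share a seed on the 3p arm, the share of each locus in that seed could be read. miR-193b-3p made up between 98.5% and 99.4% of the miR-193-3p reads in the 4 libraries, and the rest came from chromosome 17. Together the miR-193-3p strands went from 884 ± 4.98 to 1331 ± 58.2 normalized counts (SD, n = 2 each). For miR-365 the 3p reads of the loci cannot be separated, and the 5p strands served to compare them. miR-365a-5p made up 94.9% (82.7% to 99.4%) and 78.9% (62.7% to 90.4%) of the miR-365-5p reads in the minus libraries and 90.5% (77.4% to 97.3%) and 90.7% (77.9% to 97.4%) in the plus libraries, from 38 to 43 reads per library. These shares hold for the 5p strands only.

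The relation between the loci was closest to even on the miR-193 5p arm. The ratio of miR-193b-5p to miR-193a-5p was 0.848 and 1.21 in the minus and 1.30 and 1.44 in the plus libraries, higher in both plus libraries. Its log2 difference of 0.43 had an exact two-sided permutation p of 0.333, the smallest that 2 against 2 libraries can give. With a library left out it ranged from 0.18 without minus replicate 1 to 0.69 without minus replicate 2. The ratio of miR-193b-3p to miR-193a-3p was 144 and 65.7 in the minus and 147 and 157 in the plus libraries (exact permutation p = 0.333), and minus replicate 2 alone stood apart, since the log2 difference of 0.65 was 0.14 without it. With 2 libraries a group the permutation test could not have passed the threshold, so that whether the loci responded differently was not settled.

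The balance between the 2 abundant 3p strands was also compared. There were 1.54 and 1.60 miR-365-3p counts per miR-193b-3p count in the minus libraries and 1.40 and 1.43 in the plus libraries. The groups did not overlap, and this ratio does not depend on how a library was scaled. Its log2 difference was −0.16, from −0.18 to −0.13 with a library left out, and the exact permutation p of 0.333 is the smallest possible. Since that test could not have passed the threshold, a difference between the 2 rises is not established. The 7 signals together made up 0.0248% and 0.0259% of the minus totals and 0.0358% and 0.0326% of the plus totals. In these shares miR-365-3p entered the sum of the 7 signals once, while the totals count each of its equal rows.

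**Figure D4:**
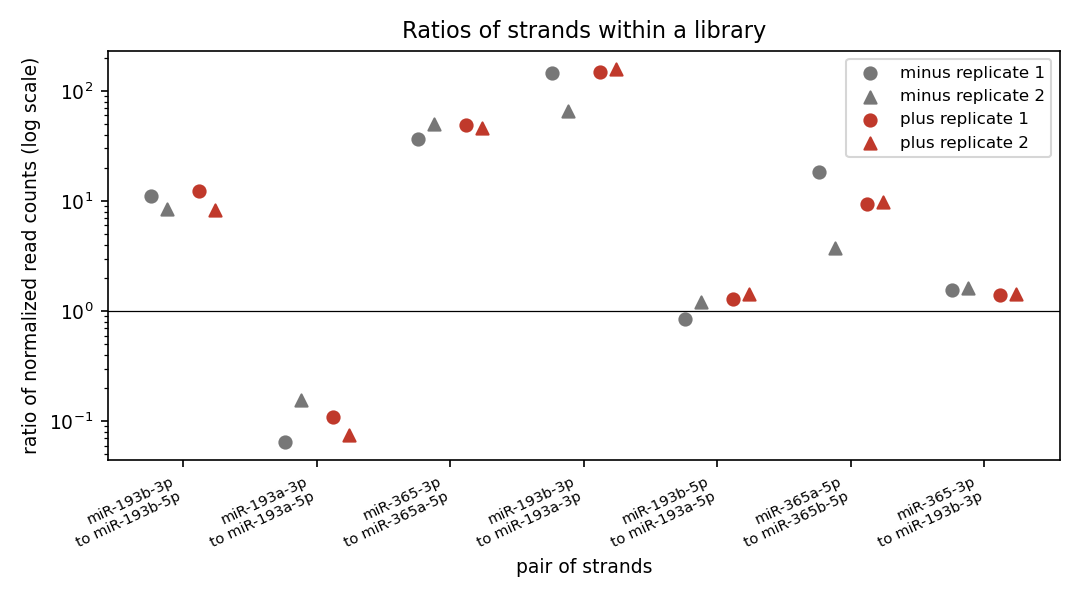
Ratio of normalized read counts of 7 pairs of strands, on a log axis, in the minus (grey) and plus (red) libraries, with circles for replicate 1 and triangles for replicate 2. The 3p strand had more reads in miR-193b and the 5p strand in miR-193a, and the plus libraries lie below the minus libraries for miR-365-3p to miR-193b-3p, at 1.40 and 1.43 against 1.54 and 1.60.

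The patterns of the abundant members over the 4 libraries were also compared with those of other miRNAs. Among many candidates some other miRNA is likely to be nearest, so that a later place of the cluster partner does not show separate behaviour. Likeness was the root-mean-square distance between log2 profiles centred on their means, among the signals with a mean of at least 100. These were 376 outside the group, and places of members are among 378. Nearest to miR-193b-3p were miR-331-3p at a distance of 0.037, miR-584-3p at 0.051 and miR-182-5p at 0.054, and miR-365-3p came at place 11 with 0.081. Nearest to miR-365-3p were miR-30c-5p at 0.021, miR-331-5p at 0.036 and miR-574-3p at 0.038, and miR-193b-3p came at place 16. miR-193b-5p was nearest to miR-146b-5p at 0.10, miR-95 at 0.11 and miR-642a-5p at 0.13, with miR-365-3p at place 27 and its own 3p strand at place 41 with 0.25. Seen from miR-193b-3p and from miR-365-3p, miR-193b-5p came at places 121 and 165. miR-193b-5p had only 78 and 109 estimated reads in the minus and 108 and 153 in the plus libraries. The part of counting error in its places was not tested. These orders rest on 4 libraries and describe the profiles only.

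Of 16 miRNAs known from fat and brown fat cells, 14 were tested, of which 7 rose, 0 fell and 7 did not pass, with a median log2 difference of 0.23. Over all 709 tested rows, 13.4% rose and 15.1% fell. The shares are not a like comparison, since the list was chosen with earlier results of these data known. Its tested members also had small standard errors, from 0.080 (miR-182-5p) to 0.13 (miR-455-5p), while low rows such as miR-365a-5p had larger ones (0.30). In the same limma fit 0 of the list were lower at an unadjusted p under 0.05. The number of rises in the list was 3 with equal totals, 4 under quantile normalization and 7 under median-ratio scaling, where 68, 47 and 107 rows of the whole table rose. The largest rises were of miR-182-5p at 0.63 (limma adjusted p = 4.48e-08) and miR-27a-3p at 0.51 (limma adjusted p = 1.31e-05). miR-133a, a muscle miRNA that restrains brown fat formation, was at 0 in both minus libraries and at 1.03 and 2.03 in the plus libraries, and miR-155-5p was at 2.04 or less, so that 2 of the 16 could not be tested. miR-143-3p stands in this list and in that of stroma.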

How the data were processed

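Small-RNA libraries from total RNA of HCT116 cells (4 libraries) were analysed from the deposited table of 1 signal per mature miRNA and library. The authors' values appear to be read counts scaled to a common library size, since small values cluster at multiples of a step that differs between libraries. The step was 1.008, 0.9445, 1.028 and 1.021 in minus 1, minus 2, plus 1 and plus 2, with between 86.9% and 100% of the values under 60 within 0.1 of a whole number of steps. Recovery of whole reads was thus incomplete, and no count model was fitted. Estimated reads are values divided by the step and rounded. Reads were trimmed with cutadapt per the labels (sample titles). The submitters' processing notes list TopHat2 2.0.8b and edgeR, and the builds hg19 and GRCh37, with no role. For the counter, the miRNA annotation and the handling of reads matching several loci, the method is not given in the sources used here. Columns named sh4 were taken as the samples titled sh2, which have the same library number and index.

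Plus was compared with minus by limma 3.58.1 (R 4.3.3), two-sided, using log2(value + 1) and a trend of variance on level, over the 709 rows with a mean of at least 10. Benjamini-Hochberg adjustment covered all of them, and the threshold was 0.05. This scale understates changes of low miRNAs. Each row had 2 residual and 43.0 prior degrees of freedom. The fit was tested on simulated data. Ratios within a library are of deposited values, and their log2 differences use value + 1. Exact permutation tests used the 4 libraries. A 95% counting interval was placed around the ratio of the deposited values. Names given in the text were the members, the 3 nearest profiles, and the 2 largest called differences per direction in the list of fat miRNAs. A further list is not reported here. Some others (miR-133a, miR-155-5p and markers) were named after their values were seen. The members and lists were chosen with earlier results of these data known. Of the 1345 rows, 1078 matched RefSeq mature names. Replicates 2 share the sh2 label, and replicates 1 were paired by elimination. Over the 386 rows with a mean of at least 100, the log2 difference between replicates 1 and 2 correlated between minus and plus with r = 0.15. Alternatives were the pseudocount, filter, scaling, trend, moderation, identical rows, replicate block and leaving out each library.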

Additional observations from a re-analysis of the deposited data

Results flagged for a closer look

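The groups of 2 libraries are too small for a search for outlying samples. For the 3 strands from chromosome 17 the plus to minus difference had opposite signs in the 2 shRNA lines, and the difference between the lines was not tested, since each has 1 library per condition. The log2 difference, plus minus minus, of miR-193a-3p was 0.54 in sh1 and −0.64 in sh2. That of miR-365b-5p was 0.76 in sh1 and −0.76 in sh2, and that of miR-193a-5p was −0.12 in sh1 and 0.35 in sh2. The counting interval of each ratio includes 1.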

How the results depend on the processing

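The count of 3 miR-193 and miR-365 signals past the threshold, and of 202 rows in the whole table, became 0 and 5 with no filter on low values, and 0 and 5 with no mean-variance trend. Quantile normalization left 101 rows of the table. With a library left out, the counts ranged from 0 to 3 and from 7 to 115, and where a group kept 1 library it was assumed to vary like the others. The replicate block gave 3 and 216, and changed no call of the 5 tested signals. The cause of these shifts was not tested. miR-193a-5p turned from 0.11 to −0.056 without plus replicate 2, and ranged up to 0.28 with another library left out. The median log2 difference of all tested rows was between −0.09 (equal totals) and −0.0003 (median-ratio scaling) over the scalings. Called rows split into 95 higher and 107 lower, against 107 and 93 under median-ratio scaling and 68 and 107 with equal totals. Depth limits miR-193a-3p and miR-365b-5p most.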
